A study of Mus musculus with 3 samples.

Results

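Gata3 and Gata2 encode zinc finger transcription factors of the GATA family. Both were followed here in the ureteric tree of the embryonic mouse kidney, as the features whose platform gene symbol is Gata2 or Gata3. Each gene had 1 probe with a value on every array, so the 2 genes are 2 of 3915 genes measured on all 3 arrays. Kidneys came from HoxB7-GFP transgenic mice at 15.5 days post coitum, sexes pooled, and their cells were separated by fluorescence-activated sorting into a GFP+ and a GFP- fraction. The HoxB7 promoter drives green fluorescent protein in the nephric duct and the ureteric tree that grows from it, so the GFP- fraction holds every other cell of the kidney. On each of the 3 arrays, amplified RNA of GFP+ cells was in channel 1 and amplified RNA of GFP- cells in channel 2, with no common reference and no dye swap per the labels. All values are log2 ratios, likely of GFP+ over GFP-: the titles and the channel order give that direction, while the labels name no dyes. A positive value therefore means higher in GFP+ cells in that direction.

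GATA factors bind the short DNA word from which the family takes its name, through a pair of neighbouring zinc fingers. Gata3 is known as a regulator of the nephric duct and ureteric bud: it acts downstream of Pax2 and Pax8, it is needed for expression of the receptor Ret in the duct, and loss of a single human copy causes a syndrome with kidney malformation. Gata2 is best known in blood progenitors and endothelium, and in the urogenital system it contributes to ureter positioning and, in the mature collecting duct, to expression of the water channel Aqp2.

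The sequences just before the start sites are shown because they are what the 2 genes can be compared on beyond their ratios. They are the 150 bases before each annotated start, from RefSeq on GRCm38.p6, 5′ to 3′ on the gene's strand, with every CpG in capitals. Gata3 has 1 listed start (chr2:9878601-9878750, minus strand) and Gata2 has 2 (start 1 at chr6:88193741-88193890 and start 2 at chr6:88198514-88198663, plus strand).
Gata3: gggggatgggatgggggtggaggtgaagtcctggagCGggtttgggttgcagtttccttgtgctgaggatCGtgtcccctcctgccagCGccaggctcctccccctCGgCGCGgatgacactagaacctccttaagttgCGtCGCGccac
Gata2 start 1: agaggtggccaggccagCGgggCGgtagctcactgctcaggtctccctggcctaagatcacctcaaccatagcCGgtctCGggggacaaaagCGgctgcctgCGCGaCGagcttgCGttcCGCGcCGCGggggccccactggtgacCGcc
Gata2 start 2: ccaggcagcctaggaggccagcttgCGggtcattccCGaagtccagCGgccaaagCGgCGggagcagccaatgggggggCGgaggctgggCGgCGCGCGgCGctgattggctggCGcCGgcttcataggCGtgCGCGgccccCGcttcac
The stretch of Gata3 held 9 CpGs and those of Gata2 held 14 and 17. Over the full window of 300 bases (250 before the start and 50 after it) the counts were 22 for Gata3 and 32 and 29 for Gata2, against a median of 20 over the 3903 windows of genes measured on all 3 arrays and 7 over all 32851 windows. Both genes therefore sat on the CpG-rich side of mouse promoters, though 46.2% of the windows of measured genes held as many CpGs as that of Gata3.

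A GATA-factor word was searched in the same windows as AGATAA on either strand, where T could also stand first and G could also stand last, and no other motif was searched. The Gata3 window held 1 match, 36 bases past the start on the gene's own strand, here in capitals within its surroundings (chr2:9878551-9878573).
Gata3 match: gcgccgtctTGATAGtttcagaa
Neither Gata2 window held one, which says only that these letters are not in those windows. Of all windows, 29.8% held a match, as did 19.3% of those of measured genes. The words were in 12 of 48 windows of genes that rose in GFP+ cells and in 11 of 42 of genes that fell, by the test described next, and no test of these shares was made.

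Gata3 was the transcription factor of the pair with the large difference. Its log2 ratio was 2.78 on array 1, 2.00 on array 2 and 2.28 on array 3, which is 6.86-fold on the first and 4.85-fold on the last. Every array placed it far above equality, and the lowest array still showed a ratio close to the mean of the ureteric keratin Krt8 (2.08). Its mean was 2.35 ± 0.39 (SD, n = 3 arrays), or 5.10-fold, with a 95% interval of 1.86 to 2.84, and it rose in GFP+ cells (limma over all genes, Benjamini-Hochberg adjusted p = 0.00495). In the same test 54 of 3915 genes rose (1.38% of those tested) and 55 fell (1.4%). Whether each array had its own pool of kidneys is not stated, and the p-values here reflect array-to-array spread that could be purely technical.

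Gata2 had a small positive ratio that missed the threshold. It was 0.19 on array 1, 0.75 on array 2 and 0.79 on array 3, or 1.14-fold, 1.68-fold and 1.73-fold. Arrays 2 and 3 were close together, and array 1 was near equality. The mean was 0.58 ± 0.34 (SD, n = 3 arrays), or 1.49-fold, and the adjusted p was 0.237 by limma. Its 95% interval, not adjusted for the number of genes, ran from 0.12 to 1.03, and 809 genes (20.7%) were likewise positive on all 3 arrays. The smallest mean among the genes that rose was 0.89, so a difference of the size of Gata2's passed for no gene on these arrays. Of the 185 genes with a mean at or above that of Gata2, 54 rose.

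The call for Gata2 changed when array 1 was left out or given little weight. Without it the mean of arrays 2 and 3 was 0.77 and the limma adjusted p was 0.0036, but 27.6% of all genes then passed as higher and 18.9% as lower. With array weights, which gave array 1 a weight of 0.15 against 1.55 and 4.31 for the others, Gata2 also passed (0.77, limma adjusted p = 7.62e-05), together with 33.4% of all genes as higher. Gata2's call in those settings has to be read against these shares. Arrays 2 and 3 were alike over the 4399 probes with values on all arrays (Pearson's r = 0.879, across probes, which are not independent), whereas array 1 had r = 0.0765 with array 2 and 0.274 with array 3. The part of array 1 in the result for Gata2 beyond these values was not tested.

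**Figure D1:**
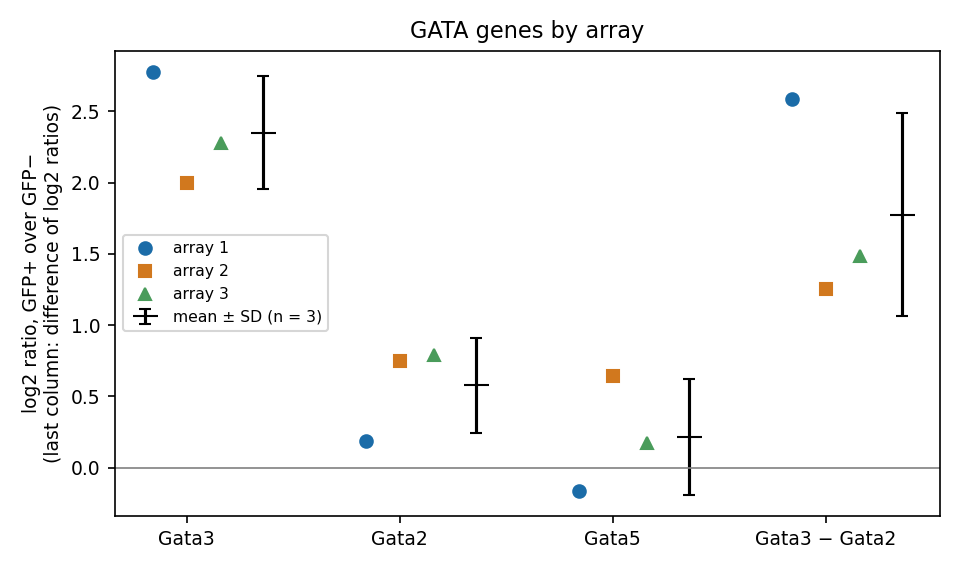
Log2 ratios (GFP+ over GFP-) of Gata3, Gata2 and Gata5 on arrays 1, 2 and 3, and in the last column the difference of the log2 ratios of Gata3 and Gata2; bars are the mean ± SD over the 3 arrays. The Gata3 points lie between 2.00 and 2.78 and the Gata2 points between 0.19 and 0.79, and array 1 is the highest point for Gata3 and the lowest for Gata2.

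The ratios of the 2 genes did not overlap: the lowest of Gata3 (2.00) was above the highest of Gata2 (0.79). Taken within each array, the log2 ratio of Gata3 exceeded that of Gata2 by 2.59, 1.25 and 1.49 on arrays 1, 2 and 3. The gap was thus widest on array 1, where Gata3 was at its highest and Gata2 at its lowest. The mean difference was 1.77 ± 0.71 (SD, n = 3 arrays), with a 95% interval of 0.88 to 2.67, so the GFP+ to GFP- ratio of Gata3 was 3.42 times that of Gata2. Fitting the difference of every gene from Gata2 with limma gave an adjusted p of 0.0324 for Gata3 (unadjusted 0.00587). In that fit 41 of 3914 genes (1.05%) stood above Gata2 and 1313 (33.5%) below it; all of these tests share Gata2's own values. The exact sign-flip permutation test over the 3 arrays gave p = 0.25 (two-sided), the smallest that 3 arrays allow. The call for the difference was lost by limma without array 2 (2.04, adjusted p = 0.212), without array 3 (1.92, 0.284) and with arrays 2 and 3 averaged to 1 replicate (1.98, 0.207), while the direction held in each.

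This is a difference of ratios and not of levels: no intensities were analysed, so which of the 2 genes was the more abundant in ureteric cells cannot be read from it. In bulk fractions, a lower ratio from fewer expressing cells and one from less RNA per cell cannot be told apart.

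Among all 3915 genes, Gata3 ranked 6 by mean ratio. It was 2 on array 1, 13 on array 2 and 7 on array 3. The genes above it by mean were the potassium channel Kcnk1 (2.89 ± 0.44), the noncoding RNA Pantr1 (2.80 ± 0.03), the WAP-domain gene Wfdc15b (2.52 ± 0.16), the sodium pump regulator Fxyd4 (2.51 ± 0.48) and the claudin Cldn7 (2.36 ± 0.27), each an SD over 3 arrays. Kcnk1 and Pantr1 lie outside the rule for named genes and were chosen after their values were seen. Pantr1 exceeded Gata3 on all 3 arrays and the other 4 on 2 of 3. None of these genes encodes a sequence-specific transcription factor. The SDs of Gata3 and its next neighbours in rank overlapped, so its place among them is not fixed by these data.

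Gata2 ranked 185, with 4.70% of genes above it, and 178 genes lay between it and Gata3. Its rank differed widely between arrays: 1255 on array 1, 202 on array 2 and 106 on array 3. Its neighbours in rank, the mitochondrial ribosomal protein gene Mrpl35 (0.58 ± 0.43) and the histone demethylase gene Kdm2b (0.58 ± 0.50) above it and Cbr4 (0.58 ± 0.21) and the methyltransferase gene N6amt1 (0.57 ± 0.43) below it, had means within 0.01 of its own. None of these 4 passed the threshold, which follows from their means, since the smallest mean that rose was 0.89.

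**Figure D2:**
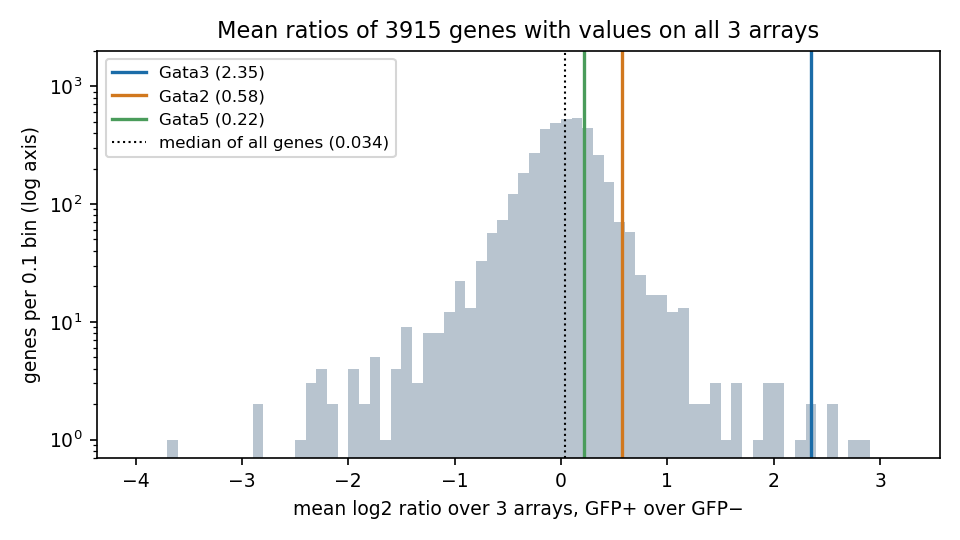
Histogram of the mean log2 ratio (GFP+ over GFP-) of all 3915 genes with values on all 3 arrays, in bins of 0.1 with a log axis for the number of genes; lines mark Gata3 (2.35), Gata2 (0.58), Gata5 (0.22) and the median of all genes (0.034). Gata3 lies in the sparse right tail, whereas Gata2 lies on the right shoulder of the main body.

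The 2 genes differed in where array 1 lay relative to the others. Gata3 was highest on array 1, as were 34.6% of all genes. Of the 54 genes that rose, 8 were highest on array 1 and 42 were lowest on it. Gata2 was lowest on array 1, as were 58.8% of all genes. Spread over the arrays was ordinary for Gata2, whose SD exceeded that of 57.4% of genes, and somewhat above for Gata3 (69.8%).

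Likeness to each gene was measured as the root mean square distance between log2 ratios over the 3 arrays. The nearest to Gata3 was S100g, a calcium-binding protein under vitamin D control, with 2.10, 2.10 and 2.07 on arrays 1, 2 and 3 (distance 0.414). It was followed by Wfdc15b (0.434), ccdc198 (0.448), the claudin Cldn7 (0.54) and Bspry (0.561). All 5 rose (limma adjusted p between 0.0032 and 0.00613). That follows from choosing genes with ratios near those of Gata3, since the largest mean that missed the threshold was 1.23. Bspry, with 2.05, 1.61 and 1.77, had the same order of arrays as Gata3 at a lower ratio. Only 3 genes lay within a distance of 0.5 of Gata3.

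Gata2 had a crowded neighbourhood, with 1252 genes within that distance and 261 within 0.25. Its nearest were Lcmt1, a methyltransferase of protein phosphatase 2A (distance 0.0415), the RNA polymerase subunit gene Polr2k (0.0579), the tetraspanin Tspan15 (0.0621), Pyurf (0.0631) and the prefoldin subunit gene Pfdn4 (0.0638). Their means ran from 0.54 to 0.64, and none passed (limma adjusted p between 0.191 and 0.267). That follows from choosing genes with ratios near those of Gata2, since the smallest mean that rose was 0.89. With 3 points a gene, all from the same arrays, these distances describe likeness of ratio and nothing further.

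**Figure D3:**
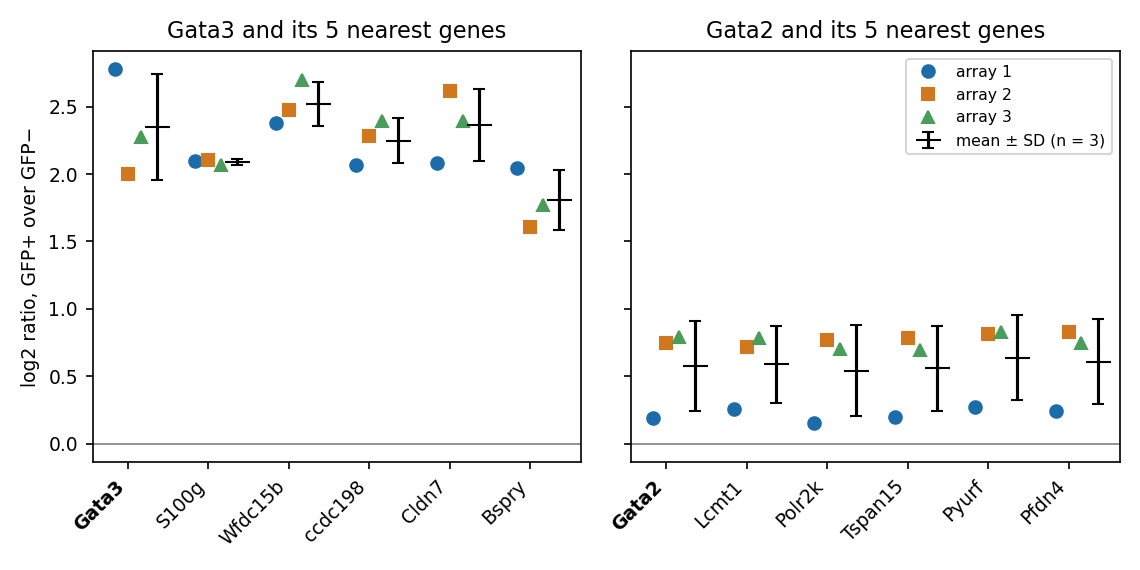
Log2 ratios (GFP+ over GFP-) by array for Gata3 (left) and Gata2 (right), each beside its 5 nearest genes in order of root mean square distance; bars are the mean ± SD over 3 arrays. The Gata2 panel shows genes that share its low value on array 1, while Gata3 stands above its neighbours on array 1.

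Within the GATA family proper, Gata1 to Gata6 were all on the array and 3 had values: Gata3, Gata2 and Gata5. Gata5, a factor of heart and endoderm, had -0.17, 0.64 and 0.18 on arrays 1, 2 and 3, on both sides of equality. Its mean of 0.22 ± 0.41 (SD, n = 3) did not pass (limma adjusted p = 0.676), and it did not pass against Gata2 either (difference -0.36, 95% interval -0.77 to 0.05). That interval leaves the order of Gata2 and Gata5 unsettled, although Gata5 was the lower on each array, and Gata3 was above both on each array. Gata1, Gata4 and Gata6 had no value on any array. The titles call the values filtered without giving the rule, so a missing value does not show that a gene was silent. Of the more distant proteins with a GATA-type finger, the chromatin factors Gatad1 (0.14 ± 0.25) and Gatad2a (-0.06 ± 0.33) did not pass.

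Not all cofactors and partners of GATA proteins could be tested. Of 27 listed, 15 were measured on all 3 arrays and 0 passed in limma in either direction. That is little different from all genes, of which 2.78% passed. At an unadjusted p below 0.05 there were 1 higher and 2 lower, where 8.45% of all genes were higher and 6.41% lower at that level. Their median was -0.04 against 0.03 over all genes. The largest positive mean was that of Zfpm1, which encodes the zinc finger cofactor FOG1 that binds GATA proteins, with 0.37, 1.10 and 0.94 on arrays 1, 2 and 3 (mean 0.80 ± 0.39, limma adjusted p = 0.133). Like Gata2, it was lowest on array 1, and without array 1 it passed (1.02, adjusted p = 0.00196) in the setting where 27.6% of genes rose. Med1 had the next largest mean, with 1.16, 0.52 and -0.22 on arrays 1, 2 and 3 (0.49 ± 0.70, limma adjusted p = 0.491). The lowest means over all 3 arrays were those of the LIM-domain binding factor Ldb2 (-0.86 ± 0.56) and the blood and endothelial factor Lyl1 (-0.74 ± 0.55), which did not pass. Rbbp7, without a value on array 1, had -1.56 and -0.78 on arrays 2 and 3. Ldb2 passed as lower without array 1 (-0.54, limma adjusted p = 0.00946) and without array 2 (-1.06, 0.0224), and Lyl1 without array 1 (-1.05, 0.00259). Without array 2, limma used a common spread for all genes, so that pass rested on the mean of Ldb2 alone.

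Known regulators of the duct gave few values to set beside Gata3. Of 44 listed, 39 were on the array, 6 had values on all arrays and 27 had none. Pax2, Lhx1, Ret, Gfra1 and Wnt11, which act with Gata3 in duct and tip, were among the 27. Of the 6, 1 rose, Spry1, which restrains signalling by Ret and other receptor tyrosine kinases, with 1.07, 0.88 and 0.90 (mean 0.95 ± 0.11, limma adjusted p = 0.0386). It did not pass without array 3 (0.98, 0.342), where limma used a common spread for all genes. Without array 1, 5 of the 6 rose, where 27.6% of all genes did. The median of the 6 was 0.49. Aldh1a3, a retinoic acid synthesis enzyme (0.69 ± 0.22), and Bmp7, a secreted growth factor (0.71 ± 0.28), lay near Gata2 and also missed the threshold (limma adjusted p = 0.13 and 0.135). Lower still were Etv5 (0.29 ± 0.37, with -0.08 on array 1), Tfcp2l1 (0.25 ± 0.25) and Grhl2 (-0.17 ± 0.26). These did not pass either (limma adjusted p = 0.551, 0.562 and 0.697). Of the 5 with a single value, named after they were seen, the proto-oncogene Myb had 1.26, the ETS factor Etv4 0.92 and Pax8 0.40, all on array 3, while Wnt7b had -0.61 on array 2 and Sall1 -0.31 on array 1. Bmp4 had 0.26 on array 1 and -0.74 on array 3.

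Among epithelial markers of the ureteric tree, without GATA genes, 6 of 24 were measured and 4 rose: Cldn7 (2.36), Krt8 (2.08 ± 0.28), Cldn3 (2.03 ± 0.38) and the protease inhibitor Spint2 (1.97 ± 0.20). The label of the GFP+ fraction therefore had 4 markers that passed, while Cdh1, Epcam, Calb1, Hoxb7 and Ret had no value. Among members with values on 1 or 2 arrays, named after they were seen, Esrp1 (2.98 and 3.11 on arrays 2 and 3), Cdh16 (2.55 and 3.19 on arrays 1 and 2), Krt7 (2.64 on array 3) and Prom1 (0.28 on array 3) were positive. Cldn4 went both ways (-0.66 on array 2 and 1.78 on array 3) and Wnt7b had -0.61. Rab25 (-0.04 ± 0.27) and Prom2 (0.52 ± 0.32) did not pass. Gata3 exceeded all 6 on array 1, where their median was 1.67, and fell short of the median on array 2 (2.15). Gata2 lay under the 4 that rose on every array. In the fit of differences from Gata2, these 4 markers stood above it (limma adjusted p between 0.0233 and 0.0247), as Gata3 did.

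**Figure D4:**
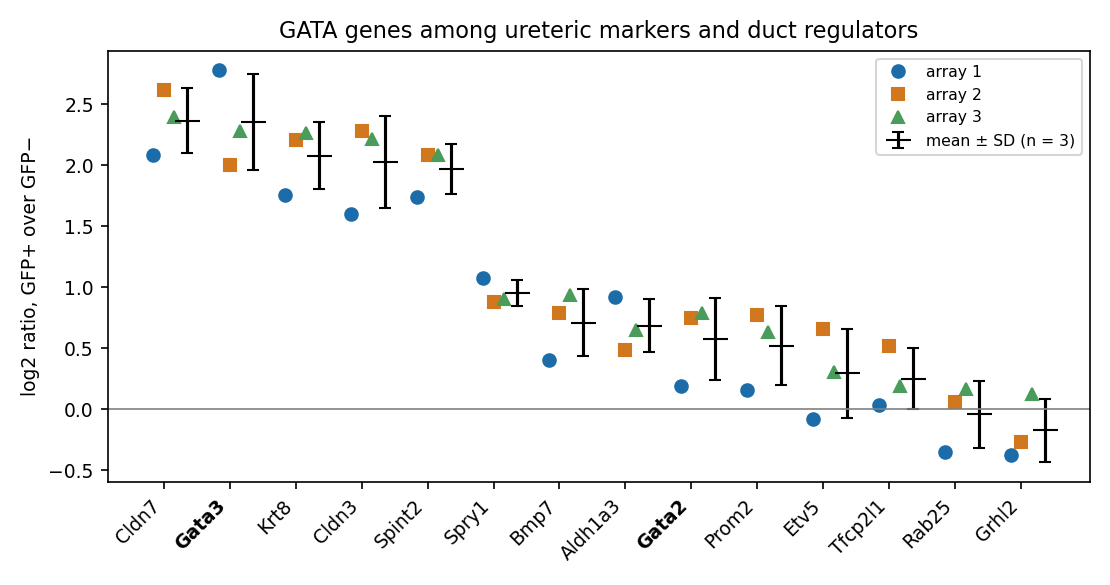
Log2 ratios (GFP+ over GFP-) on arrays 1, 2 and 3 of the ureteric epithelial markers and duct regulators measured on all 3 arrays, with Gata3 and Gata2, ordered by mean; bars are the mean ± SD over 3 arrays. Gata3 stands with Cldn7, Krt8, Cldn3 and Spint2, and Gata2 with Bmp7, Aldh1a3 and Prom2.

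Aqp2, the water channel linked to Gata2 in the mature collecting duct, had no value, nor did its hormone receptor gene Avpr2. Of 21 collecting duct and urothelial genes, 18 had no value on any array, and the 1 measured on all, Fxyd4, rose (2.51, limma adjusted p = 0.00531). The urothelial gene Upk2, named after its values were seen, had 0.46 on array 1 and 0.06 on array 3.

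Other cells also use these factors, and their markers were read on the same arrays. Of 12 markers of T cells and innate lymphoid cells, which use Gata3, 8 had no value. The 1 measured on all arrays, Rag1, had 0.26 ± 0.15 and did not pass, and Ptprc had -0.89 on array 3 alone. Of 12 endothelial markers, 7 were measured on all arrays. All 7 means were negative, from -0.96 for Ramp2 to -0.02 for Plvap (0.12 without array 1), with a median of -0.31. In limma 0 passed, and 2 were lower at an unadjusted p below 0.05, as were 6.41% of all genes. Among endothelial markers with fewer values, named after they were seen, Cdh5 had -2.08 and -1.28 on arrays 2 and 3. On array 3 alone, Pecam1 had -1.46 and Sox17 -0.06. Of 10 mast cell and megakaryocyte markers, the mast cell protease gene Cpa3 (-0.76 ± 0.20, limma adjusted p = 0.0841) and the receptor gene Kit (-0.18 ± 0.25) were measured on all arrays, and the megakaryocyte integrin Itga2b had 1.07 on array 3 alone. Of 9 erythroid markers, 3 were measured on all arrays and 2 fell, Alas2 (-2.15 ± 0.07) and Hba-x (-2.22 ± 0.38). The globin gene Hba-a1 did not pass, with -0.08, -0.20 and -0.72 on arrays 1, 2 and 3 (-0.33 ± 0.34, limma adjusted p = 0.49). Hbb-y had -2.59 and -2.57 on arrays 2 and 3, and Epor had -0.44 on array 3. The nerve list had 1 measured gene of 9, Tubb3 (-0.18 ± 0.52). The part of these cells in Gata2's ratio was not tested.

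Cap mesenchyme, macrophage and stromal markers measured on all 3 arrays had negative means, except the cap mesenchyme gene Osr1, named after its values were seen, at 0.17 ± 0.28 (limma adjusted p = 0.698, and 0.0399 without array 1 at a mean of 0.33). Of 9 cap mesenchyme genes, 6 were measured and 3 fell, Wt1 (-1.42 ± 0.37), Uncx (-1.20 ± 0.15) and Crym (-1.72 ± 0.59); leaving out array 1 or array 2 gave 5, where 18.9% and 1.79% of all genes fell. Of 10 macrophage genes, 6 were measured on all arrays, with a median of -1.91, and 5 fell. These were Cd52 (-2.84 ± 0.28), Fcer1g (-2.33 ± 0.56), Mrc1 (-1.96 ± 0.28), Laptm5 (-1.86 ± 0.04) and C1qa (-1.56 ± 0.15). Of 11 mesangial and stromal genes, Dcn (-1.61 ± 0.26) and Mgp (-2.46 ± 0.62) were measured on all arrays and both fell. Tbx18, named after its value was seen, had -0.05 on array 3 alone. With all 3 arrays, 1.4% of all genes fell.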

How the data were processed

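Per the labels, images were read with Imagene 5.5, ratios were normalized by a Lowess curve that used 20.0% of the points at a time and corrected the control channel, for which 10 was the lowest value allowed. The deposited values are log2 ratios; base 2 was read from the numbers, since 2 raised to the value was a whole number of thousandths (within 0.01) for 99.97% of values. Of 22702 features, 883 controls and blanks were left out. Probes with 1 gene symbol, updated through gene identifiers (15970 of 16656 matched), were averaged per gene. Genes with values on all 3 arrays were tested with limma 3.58.1 in R 4.3.3 (mean ratio against 0, intercept only, Benjamini-Hochberg, threshold 0.05), and again after Gata2's ratio was subtracted on each array. The script was checked on simulated arrays with independent noise, so that check does not cover the likeness of arrays 2 and 3 seen here. Intervals are limma's 95% intervals. The number of arrays limits the precision, and without a dye swap a dye effect on single genes cannot be told apart from a difference between cells. Array weights used limma's gene-by-gene method, since the default fit did not converge.

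The members and lists were chosen with earlier results of these data known. Named were Gata2, Gata3, other GATA genes with values, the 5 genes nearest to each in profile, 2 neighbours on each side in rank, and of each list the members that passed and up to 4 of largest absolute mean. Not every gene under this rule is named, as with the endothelial genes Emcn and Kdr. Other genes, such as Gatad2a, Rab25, Prom2, Plvap, Tfcp2l1 and Grhl2, were chosen after their values were seen. Alternatives were leaving out each array, centring, scaling, quantile normalization, genes with values on at least 2 arrays, single probes, an ordinary one-sample statistic, array weights, and arrays 2 and 3 averaged. Probe sequences were not used here.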

Additional observations from a re-analysis of the deposited data

How the results depend on the processing

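The mean of Gata3 stayed between 2.14 and 2.53 over the alternatives, and it passed in limma under every one. It missed with the ordinary one-sample statistic (2.35, adjusted p = 0.259), which shares no variance between genes. Without array 2, without array 3 and with arrays 2 and 3 averaged, limma used a common spread for the log2 ratios of all genes. A pass there depended on the mean ratio alone and not on the gene's own spread. The same applies to Spry1, Ldb2 and the cap mesenchyme genes in those settings. Leaving out arrays in turn gave 2.14 to 2.53 for Gata3, 0.47 to 0.77 for Gata2 and 1.37 to 2.04 for their difference. Gata2 passed without array 1 (0.77) and with array weights (0.77), and in no other setting. The difference missed with the ordinary statistic (1.77, adjusted p = 0.124), with arrays 2 and 3 averaged (1.98) and without array 2 or 3; it passed after scaling (1.77), quantile normalization (1.68) and with array weights (1.45). Ranks ran from 4 to 10 for Gata3 and from 136 to 267 for Gata2. Counts of genes that rose were 23 to 1080 with an array left out, 1309 with array weights, 29 with arrays 2 and 3 averaged and 1 by the ordinary statistic (284 at an unadjusted p below 0.05). Counts that fell were 51 to 738, 861 with array weights, 84 after quantile normalization and 0 by the ordinary statistic (187 unadjusted). Of the genes named in the text, 4 near 0 changed sign without array 1, with means over left-out arrays of -0.43 to 0.089 for Tubb3, -0.18 to 0.13 for Gatad2a, -0.084 to 0.12 for Plvap and -0.15 to 0.11 for Rab25; the last 3 also did so with array weights (0.094, 0.10 and 0.13). The causes were not tested. No paired analysis was possible because each array is itself the comparison and there is 1 group. Signal over background could not be examined, since no intensities were analysed.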
